A study of Mus musculus with 8 samples.

Results

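The type I interferon-stimulated genes were followed here as a set of 41 genes, named one by one, of the 24405 genes that the 8 count tables of the study list together. All 41 had a row in every table. They comprised 11 antiviral effectors that act on RNA or translation, 3 genes of ubiquitin-like conjugation, 4 Schlafen genes, 7 sensors of RNA or DNA, 4 genes of interferon signalling and transcription, 3 GTPases and 9 other induced genes.

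The study read single cells of mouse heart, liver and kidney allografts with Microwell-seq, in which each captured mRNA molecule carries a unique molecular identifier (UMI). The labels give male BALB/c mice of 8 weeks for every library, while the paper describes BALB/c organs placed into C57BL/6J recipients, so a graft cell may come from either strain. No recipient was given immunosuppression, and cells were taken on day 7 after transplantation. The 8 libraries were peripheral blood cells (PBMC) of heart, liver and kidney recipients, tissue-infiltrating lymphocytes (TIL) of the 3 organs, and the parenchymal preparations (PC) of liver and of kidney. Each condition was 1 library. Each organ had more than 1 recipient mouse, and whether a library pooled them is not given in the sources used here. Neither untreated animals nor syngeneic grafts were part of these libraries.

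Type I interferons are secreted proteins that bind the receptor formed by Ifnar1 and Ifnar2 and act through transcription factors, Stat2 and Irf9 among them, that bind a short promoter sequence called the interferon-stimulated response element. The genes switched on in this way encode proteins that bind viral RNA, block translation or degrade RNA, and they include the signalling genes themselves. Many of them also respond to interferon gamma, and blood neutrophils and monocytes are known to respond to type I interferon.

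Letters of this element stood in some of the members' promoters, and 5 promoters that hold them are shown as examples, for genes described in the results that follow. The letters searched for were GAAANNGAAA, or TTTCNNTTTC on the other strand, from 250 bases before to 50 bases after each gene start in the RefSeq promoter table of GRCm38.p6. Of the 32 members with an entry, 16 held a match (50%), beside 1079 of the 27025 genes of the table (3.99%). Capitals mark the matches, overlapping ones in 1 run, and each sequence is read 5′ to 3′ along the strand of its gene. All 5 windows lie upstream of the annotated gene start, at chr19:34640765-34640833 (plus strand) for Ifit1, chr19:34583353-34583436 (plus) for Ifit3, chr19:34607749-34607832 (plus) for Ifit3b, chr4:156200855-156200916 (minus) for Isg15 and chr12:26456543-26456592 (minus) for Rsad2.
Ifit1: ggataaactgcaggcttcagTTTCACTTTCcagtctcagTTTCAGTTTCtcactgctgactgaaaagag
Ifit3: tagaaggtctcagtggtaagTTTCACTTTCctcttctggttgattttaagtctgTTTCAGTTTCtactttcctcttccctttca
Ifit3b: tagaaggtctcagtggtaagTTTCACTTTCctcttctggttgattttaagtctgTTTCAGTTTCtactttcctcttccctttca
Isg15: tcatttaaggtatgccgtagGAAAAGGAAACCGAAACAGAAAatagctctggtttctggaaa
Rsad2: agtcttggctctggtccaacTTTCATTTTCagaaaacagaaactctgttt

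The first match began 104 bases before the start of Ifit1, 156 before Ifit3, 188 before Ifit3b, 78 before Isg15 and 120 before Rsad2. The windows of Ifit3 and Ifit3b were letter for letter the same. These neighbouring genes on chromosome 19 are near-identical copies, and since the authors removed reads that aligned to several places, the split of UMIs between them is uncertain. The other 11 members with a match were Bst2, Ddx58, Ddx60, Eif2ak2, Ifi205, Ifih1, Phf11b, Slfn5, Slfn8, Stat2 and Trim30a. The 16 without one were Ifit2, Isg20, Oasl1, Oasl2, Irf7, Irf9, Ifi44, Ifi47, Slfn1, Slfn4, Xaf1, Cmpk2, Herc6, Phf11d, Samd9l and Lgals3bp, and 9 members had no entry (Usp18, Dhx58, Zbp1, Ifi204, Mx1, Mx2, Ifi27l2a, Rtp4 and Parp14). The letters were not particular to the members, since 13 of 19 promoters of a list of interferon gamma genes held them (68.4%). A match is a run of letters and not a measured binding site.

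Levels are CPM, that is, the UMIs of a gene summed over the cells of a class in 1 library and scaled to a total of 1000000 UMIs in those cells. Each UMI stands for 1 molecule, so no division by length was made, and the exact 95% Poisson intervals given in brackets cover counting error only. With 1 library per condition there is no replicate spread and no test. A member was counted as at least 2-fold higher or lower by log2 ratios with 1 CPM added, where both libraries together held at least 10 UMIs and each had at least 50 cells, and the same share over all genes that could be counted is printed beside it.

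The libraries held 3418722 to 19171264 UMIs, and 795 to 10000 of the 10000 barcodes of each had at least 500 UMIs. Cells with at least 1 Csf3r UMI were taken as the neutrophil gate, at least 1 Csf1r UMI as the monocyte or macrophage gate, at least 2 UMIs of Cd3d, Cd3e, Cd3g and Trac as T cells, and at least 2 of Cd79a and Cd79b as B cells. From 2.59% to 26.1% of a library's cells passed 2 or more gates, 5503 barcodes occurred in more than 1 library, and pairs of libraries shared 123 to 617. Among TIL, the organ labels of heart and liver went against the contents. Hepatocyte genes summed to 728 CPM under the heart label and 75.0 CPM under the liver label, and cardiomyocyte genes to 26.1 and 176 CPM. These libraries are therefore called heart-labelled TIL and liver-labelled TIL, and no organ is read from them.

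The gates also did not hold the same cells in blood and graft. The 13 neutrophil genes, among them S100a8 and S100a9, summed to 220626, 136829 and 120195 CPM in the Csf3r-positive cells of heart, liver and kidney PBMC, against 18155, 16700 and 27169 CPM in those of heart-labelled TIL, liver-labelled TIL and liver PC. Csf3r-positive graft cells are therefore not called neutrophils here. In the other direction, blood T cells carried the same genes at 147042, 64492 and 22037 CPM, and T cells of the 5 graft libraries at 112 to 9584 CPM. Neutrophil RNA thus differed between blood and graft in each gate, and most sums across that border are given again further on within bands of its share. For B cells no such sum was taken. Overlap of gates also differed. Of Csf3r-positive cells, 79.3%, 79.3% and 69.9% passed no other gate in heart, liver and kidney PBMC. In heart-labelled TIL, liver-labelled TIL and liver PC it was 32.2%, 45.2% and 19.5%. In the Csf1r gate it was 36.3% and 45.8% in heart and liver PBMC, and 44.2%, 58.4% and 32.9% in those graft libraries.

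In blood the members together made up more than 1% of the UMIs of Csf3r-positive cells. Their sum was 15434 CPM [15310 to 15559] in the 4324 cells of heart PBMC, 12738 CPM [12607 to 12869] in the 3545 cells of liver PBMC and 13546 CPM [12904 to 14213] in the 156 cells of kidney PBMC. The heart sum was 1.21 times the liver sum and 1.14 times the kidney sum, and the liver sum was 0.94 times that of kidney. Over 6 other choices of cells the ratios to kidney turned in direction, from 0.76 to 2.55 for heart and from 0.68 to 1.85 for liver, and among cells with 5% or more of UMIs from S100a8 and S100a9 they were 0.81 and 0.71. With 1 library each, whether such ratios recur between animals was not measured. In the Csf1r gate the sum was 14573 CPM in heart PBMC and 11151 CPM in liver PBMC, and in B cells 12273 and 9969 CPM. Among cells with 2% to under 5% of UMIs from S100a8 and S100a9, heart over liver turned to 0.82 [0.74 to 0.91] in the Csf1r gate, from 28 cells of heart. In the Csf3r gate it was 0.92 [0.85 to 1.01] there, from 42. At 5% or more, which held most of these cells, heart stayed above liver. The ratio was 1.14 [1.11 to 1.18] in the Csf1r gate and 1.13 [1.11 to 1.15] in the Csf3r gate, from 774 and 4278 cells of heart. Kidney PBMC held 49 Csf1r-positive cells and 2 B cells, too few for a comparison.

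**Figure D1:**
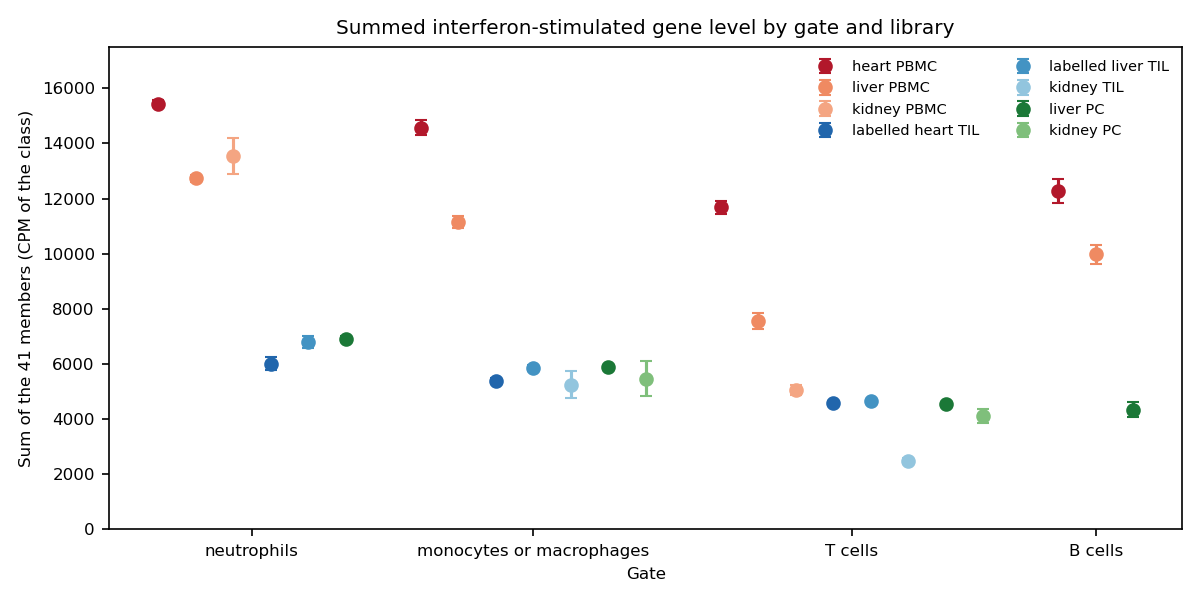
Summed level of the 41 members in CPM (linear axis from 0) for each gate and library with at least 50 cells, with bars for exact 95% Poisson intervals. Blood libraries lie above the graft libraries in the neutrophil, monocyte or macrophage and B cell gates, while T cells of kidney PBMC (5044 CPM) lie near those of liver-labelled TIL (4634 CPM).

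Blood T cells had the widest range. Their sum was 11679 CPM in heart PBMC, 7560 CPM in liver PBMC and 5044 CPM in kidney PBMC, so that heart was 1.54 times liver and 2.32 times kidney. Among T cells with 2% to under 5% of UMIs from S100a8 and S100a9 these ratios were 1.07 and 0.93, and at 5% or more 1.17 and 1.04, the last from 34 cells of kidney. The order of the 3 libraries was that of their neutrophil RNA in the same cells, with a median of 13.0%, 4.98% and 1.56% of UMIs from S100a8 and S100a9. Beside the neutrophil gate of the same library, T cells carried 66.9% of the neutrophil genes and 75.7% of the members in heart PBMC, 47.4% and 59.4% in liver PBMC, and 18.5% and 37.2% in kidney PBMC. RNA from neutrophils in the wells of T cells and RNA made by T cells cannot be told apart by such sums.

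Counted gene by gene, few members differed between blood libraries in Csf3r-positive cells. Between heart and liver PBMC, 0 of 39 members were at least 2-fold higher in heart (all genes 2.95%) and 5 were lower (19.2%), namely Mx1, Ifi205, Phf11d, Parp14 and Trim30a. The median gene of this comparison lay at a log2 ratio of -0.37, and with ratios centred on it 8 members were higher (6.79%) and 3 lower (8.78%). Between heart and kidney PBMC, 4 of 38 were higher (25.1%) and 5 lower (30%). Between liver and kidney PBMC, 2 of 39 were higher (28.0%) and 4 lower (16.8%). Among cells with at least 1000 UMIs, of which kidney PBMC held 21, the members higher than in kidney numbered 23 of 37 for heart (40.8%) and 22 of 39 for liver (39.3%). In the Csf1r gate 3 of 39 members were higher in heart than in liver PBMC (5.49%), Ifit3, Ifit1 and Irf7, and 3 were lower (21.4%). With centred ratios 12 were higher there (10.9%) and 3 lower (11.7%). Among Csf1r-positive cells with 5% or more of UMIs from S100a8 and S100a9, 0 of 37 were higher in heart (6.38%) and 1 was lower (15.6%).

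Rsad2 (viperin, which makes a chain-terminating nucleotide that stops viral RNA synthesis) was higher in Csf3r-positive cells of kidney PBMC than in those of the other blood libraries. Its level was 158 CPM in heart, 163 CPM in liver and 674 CPM in kidney PBMC, the last from 83 UMIs in 156 cells. The log2 ratio was -2.08 [-2.42 to -1.74] for heart over kidney and -2.04 [-2.38 to -1.69] for liver over kidney. Ddx58 (RIG-I, a sensor of viral RNA) and Eif2ak2 (PKR, a kinase that stops translation) were also at least 2-fold higher in kidney PBMC than in both others, from 12 and 7 UMIs in kidney. So was Phf11d, with a larger ratio than Rsad2 but from 7 UMIs in kidney, at 56.9 CPM there and 2.36 CPM in heart PBMC.

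In blood T cells the members stood further apart. For heart over liver PBMC, 8 of 37 members were at least 2-fold higher (7.12%), with Oasl1, Ifit2, Ifit3 and Ifit1 among them. For heart over kidney PBMC it was 23 of 37 (15.8%), and for liver over kidney PBMC 15 of 35 (14.0%). Among T cells with 2% to under 5% of UMIs from S100a8 and S100a9 the 3 counts were 2 of 28 (10.6%), 4 of 25 (17.0%) and 5 of 25 (13.6%), and 5 of 28 were lower in heart than in liver (10.1%). At 5% or more, 7 of 37 were higher in heart than in liver (11.9%). With ratios centred on the median gene 13 members were higher in heart than in liver (9.99%).

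Within a blood library the members were most often highest in the neutrophil gate, for 25 of 39 members in heart PBMC (all genes 11.6%), 25 of 40 in liver PBMC (11.9%) and 32 of 34 in kidney PBMC (36.1%), where it was set beside T cells only. The sum in the neutrophil gate was 1.32, 1.68 and 2.69 times that of T cells of the same library. At least 2-fold higher were 2 of 38 members in heart PBMC (3.48%), 13 of 39 in liver PBMC (11.1%) and 25 of 34 in kidney PBMC (12.0%). Among cells that passed no other gate the counts were 11 of 37 in heart (10.7%) and 25 of 39 in liver (19.0%). The count in kidney PBMC fell by more than 1.5 times with a floor of 1000 UMIs per cell and with a minimum of 30 UMIs. Members at least 2-fold higher in kidney included Slfn4, Rsad2, Slfn5, Oasl1 and Ifi204. Phf11b (a PHD finger gene induced by interferon) ran the other way, with 76.1, 94.5 and 81.3 CPM in Csf3r-positive cells and 150 to 274 CPM in T cells of the same libraries.

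The members' levels were unequal. Ifi27l2a, a mitochondrial membrane protein of unsettled function, gave the most UMIs of any member in every gate and library with at least 50 cells, 18.5% to 43.3% of the sum. In Csf3r-positive cells it stood at 3348, 2597 and 3454 CPM in heart, liver and kidney PBMC. Slfn1 and Slfn4, Schlafen genes that regulate proliferation and differentiation of T cells and myeloid cells, had 691 to 1398 CPM and 926 to 1169 CPM. Ifi47, a GTPase of the interferon-inducible family, ranged from 983 to 1137 CPM, Rtp4 (a chaperone of receptors) from 544 to 1118 CPM, and Isg15 from 700 to 1097 CPM. At the other end were Mx1, Mx2 and Ifi44, with at most 13.4, 2.46 and 1.41 CPM in heart and liver PBMC. Kidney PBMC gave 0 UMIs of each, which allows up to 24.4 CPM.

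**Figure D2:**
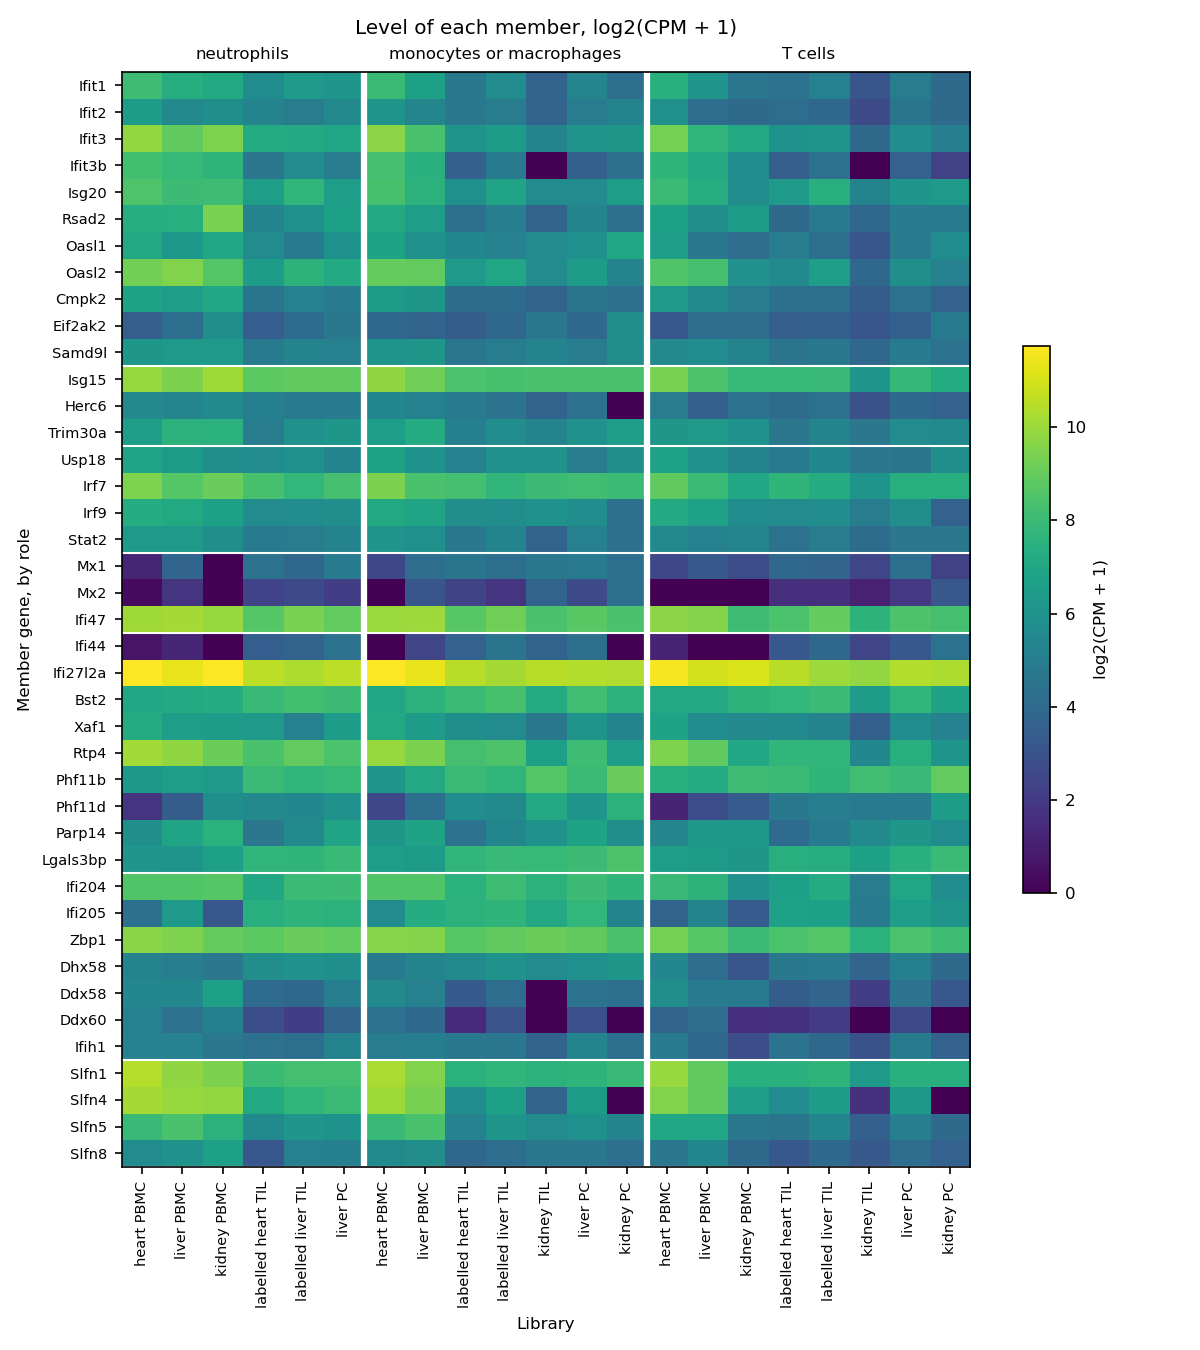
Level of each of the 41 members by colour, on a log scale with 1 CPM added, with members as rows grouped by role and libraries as columns. Among the columns of Csf3r-positive cells of 6 libraries, Ifi27l2a is the brightest row in each. There the Ifit, Oasl and Schlafen rows are brighter in the 3 blood columns, and Ifi44, Ifi205, Phf11b and Lgals3bp are brighter in the 3 graft columns.

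In graft libraries the sum was lower in each gate that could be compared. Csf3r-positive cells held 6007 CPM in heart-labelled TIL (450 cells), 6783 CPM in liver-labelled TIL (584 cells) and 6892 CPM in liver PC (1146 cells), which was 2.57, 1.88 and 1.85 times lower than in PBMC of the same organ label. Over this and 6 other choices of cells these 3 values ran from 1.59 to 2.68, 1.49 to 1.88 and 1.40 to 1.87. In the Csf1r gate the sums were 5391, 5847 and 5882 CPM, 2.70, 1.91 and 1.90 times lower. In T cells they were 4585, 4634 and 4532 CPM, 2.55, 1.63 and 1.67 times lower. Liver-labelled TIL and liver PC were both set against liver PBMC and so share it. With the heart and liver TIL labels exchanged, the ratio to blood in the 3 gates was 0.47, 0.48 and 0.61 for heart-labelled TIL against liver PBMC and 0.44, 0.40 and 0.40 for the other against heart PBMC.

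Kidney could be compared in T cells, where the sum was 5044 CPM in PBMC, 2460 CPM in TIL (1147 cells) and 4103 CPM in PC (395 cells). The TIL sum was 2.05 times lower than that of PBMC and the PC sum 1.23 times lower. B cells could be compared in liver only, with 9969 CPM in PBMC and 4337 CPM in the 104 B cells of liver PC, 2.30 times lower. In the same B cells the neutrophil genes other than Csf3r summed to 95334 and 8352 CPM, and their part in the ratio was not tested. Kidney TIL and kidney PC held 9 and 3 Csf3r-positive cells and 109 and 84 Csf1r-positive cells, with sums of 5229 and 5448 CPM in the latter.

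Gene by gene, members at least 2-fold lower in graft were more frequent than all such genes in Csf3r-positive cells, but not with a gate of 2 Csf3r UMIs in the TIL libraries. In Csf3r-positive cells they were 27 of 39 in heart-labelled TIL (13.8% of all genes), 19 of 41 in liver-labelled TIL (16.3%) and 16 of 41 in liver PC (8.71%). Higher were 5 of 39 (36.2%), 6 of 41 (17.4%) and 5 of 41 (23.3%). Gene counts and ratios of TIL to blood pair libraries by organ label and were not taken with the heart and liver TIL labels exchanged. With ratios centred on the median gene, which lay at log2 0.60, 0.13 and 0.37, liver PC had 3 members higher (13.6%) and 19 lower (14.3%). With a gate of 2 Csf3r UMIs 13 of 37 members were lower in heart-labelled TIL (40.1%) and 12 of 39 in liver-labelled TIL (33.9%), no longer above the share of all genes. With cells of 1 gate only 7 of 40 were lower in liver PC (13.4%).

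The Csf1r gate gave 28 of 40 lower in heart-labelled TIL (10.3%), 17 of 41 in liver-labelled TIL (12.5%) and 18 of 41 in liver PC (8.14%). Higher there were 7 of 40 (38.6%), 3 of 41 (17.9%) and 3 of 41 (25.6%). In T cells 28 of 41 were lower in heart-labelled TIL (8.24%), 12 of 40 in liver-labelled TIL (12.4%), 14 of 41 in liver PC (8.93%), 22 of 36 in kidney TIL (13.2%) and 7 of 35 in kidney PC (19.5%). In B cells of liver PC it was 20 of 34 (16.0%), or 12 of 23 among cells of 1 gate only (22.7%). Kidney PC was the comparison in which the members' share, 7 of 35, came closest to that of all genes. In T cells the counts of liver-labelled TIL, kidney TIL and kidney PC moved by more than 1.5 times under some alternatives, listed in the last section.

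**Figure D3:**
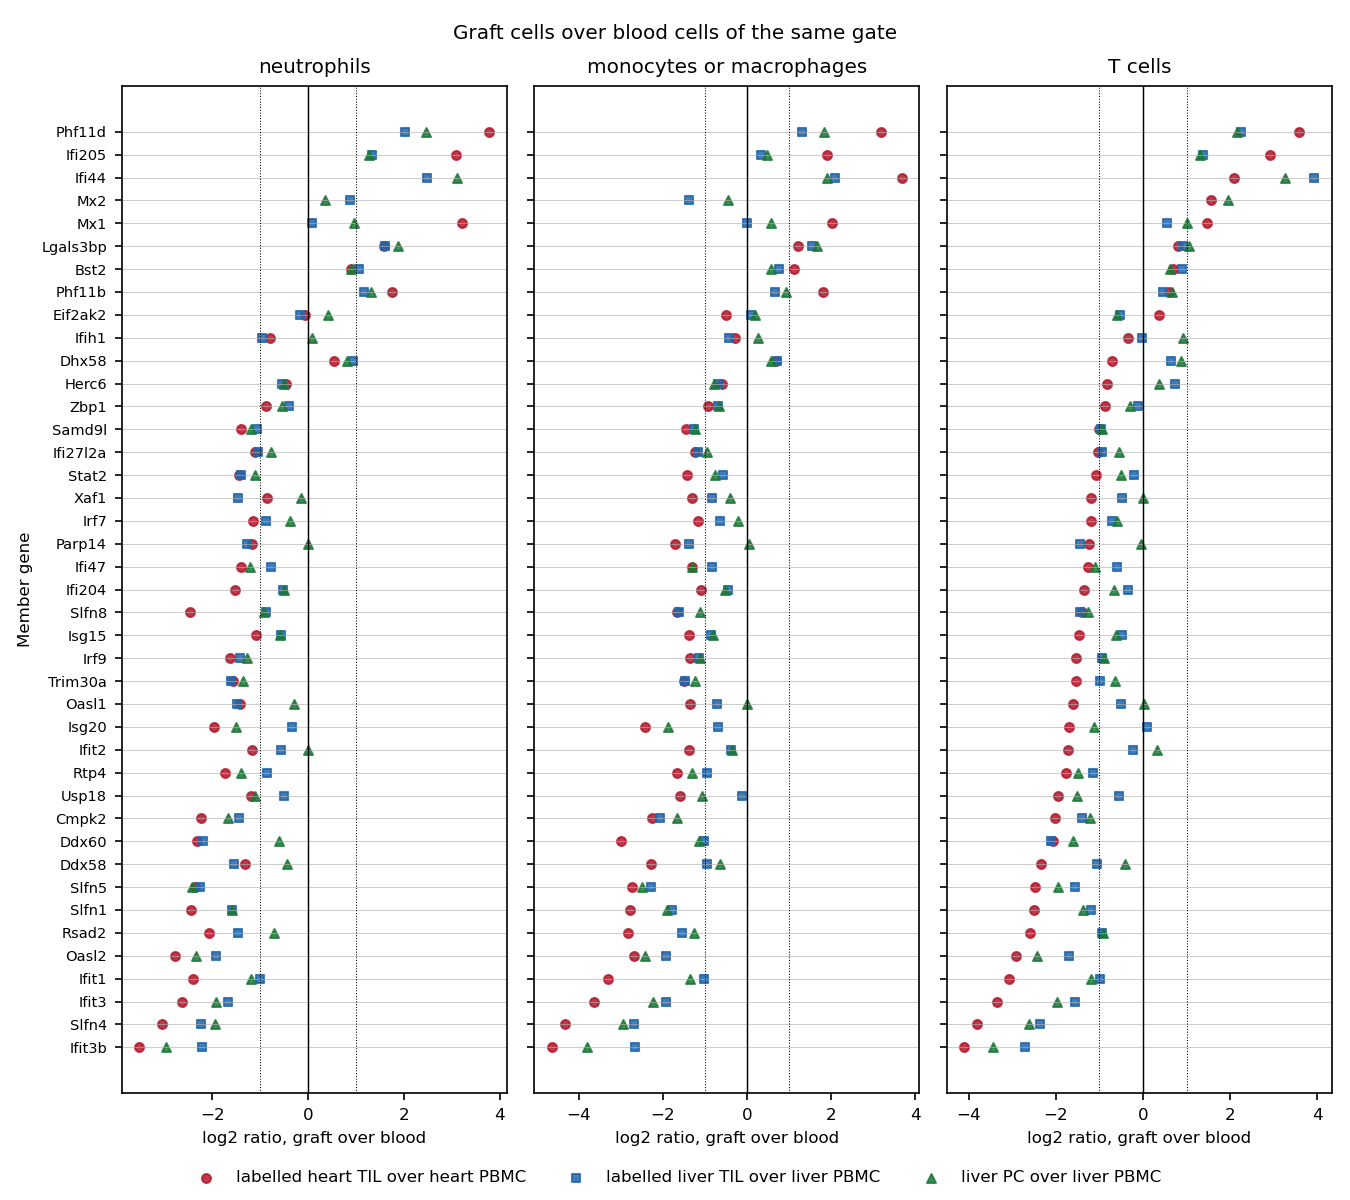
Log2 ratio of graft over PBMC of the same organ label for each member and gate (1 CPM added), with members as rows and values outside the rule of 10 UMIs left out. Ifit3b, Slfn4, Ifit3, Oasl2 and Slfn5 are the most strongly lower rows, while Phf11d, Ifi44, Ifi205 and Lgals3bp are above 0.

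Of the antiviral effectors, 10 of 11 were at least 2-fold lower in Csf3r-positive cells of heart-labelled TIL (all genes 13.8%), 8 of 11 in liver-labelled TIL (16.3%) and 7 of 11 in liver PC (8.71%). These 3 shares of all genes hold for the counts of lower members in each group that follows. Levels of all 3 graft libraries lay below those of all 3 blood libraries for 27 of 41 members (all genes 6.61%) and above them for 8 (24.3%). Of the 8, Mx1, Mx2 and Ifi44 gave 0 UMIs in kidney PBMC, which allows up to 24.4 CPM. Ifit1, Ifit2, Ifit3 and Ifit3b belong to 1 family, in which the Ifit1 protein binds RNA lacking host marks and holds back its translation. Ifit3 stood at 921, 465 and 723 CPM in Csf3r-positive cells of heart, liver and kidney PBMC and at 148, 146 and 122 CPM in heart-labelled TIL, liver-labelled TIL and liver PC. The graft and blood ranges did not overlap, with log2 ratios of -2.63 [-3.00 to -2.30], -1.67 [-2.01 to -1.35] and -1.92 [-2.12 to -1.75]. Ifit3b stood at 296, 237 and 203 CPM in blood and 24.7, 49.8 and 29.5 CPM in graft, and Ifit1 at 276, 157 and 138 against 51.4, 78.2 and 68.0 CPM.

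Oasl2, a relative of the oligoadenylate synthetases that activate RNase L, went from 603, 729 and 390 CPM in blood to 86.3, 192 and 143 CPM in graft. Rsad2 stood at 37.0, 58.7 and 98.8 CPM in graft, below each blood value. Cmpk2, a mitochondrial nucleotide kinase that neighbours Rsad2, had 93.8 to 130 CPM in blood and 22.6 to 33.8 CPM in graft. Samd9l (a restriction factor of viruses) had 72.7 to 81.3 against 26.7 to 37.3 CPM, and Oasl1 77.0 to 134 against 26.7 to 62.5 CPM. The ranges of these 5 effectors did not meet, and they are among the 27 given above. Isg20, an exonuclease that degrades RNA, was a member whose ratio depended on the library, with log2 ratios of -1.97 [-2.44 to -1.55] for heart-labelled TIL, -0.34 [-0.63 to -0.06] for liver-labelled TIL and -1.50 [-1.73 to -1.29] for liver PC. Eif2ak2 and Ifit2 had ranges of 10.3 to 24.8 and 30.2 to 44.9 CPM in graft and 10.8 to 56.9 and 45.0 to 85.3 CPM in blood, so those of Eif2ak2 overlapped.

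All 4 Schlafen genes were at least 2-fold lower in Csf3r-positive cells of heart-labelled TIL, and 3 of 4 in liver-labelled TIL and in liver PC. Slfn4 stood at 1169, 993 and 926 CPM in blood and 140, 210 and 258 CPM in graft, with log2 ratios of -3.06 [-3.43 to -2.72], -2.24 [-2.52 to -1.98] and -1.94 [-2.07 to -1.82]. Slfn1 went from 1398, 903 and 691 CPM to 255, 299 and 297 CPM. Slfn5 went from 248, 336 and 187 CPM to 47.3, 69.3 and 62.0 CPM, and Slfn8 from 49.9 to 97.5 CPM in blood to 8.22 to 33.8 CPM in graft. The family lies together on chromosome 11, Slfn5 at chr11:82951349-82964840, Slfn8 at chr11:83002158-83020810, Slfn1 at chr11:83116849-83122670 and Slfn4 at chr11:83175186-83190216 (GRCm38), and its members resemble each other in sequence.

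Of the signalling genes, 4 of 4 were lower in heart-labelled TIL, 2 of 4 in liver-labelled TIL and 3 of 4 in liver PC. Irf7, the factor that amplifies type I interferon production, stood at 717, 402 and 528 CPM in blood and 320, 219 and 307 CPM in graft. Irf9 and Stat2, parts of the factor that binds the response element, had 97.5 to 155 and 56.9 to 81.9 CPM in blood and 49.3 to 57.8 and 28.8 to 37.2 CPM in graft. Usp18, which removes Isg15 from proteins and restrains the receptor, had 56.9 to 115 against 38.1 to 58.7 CPM, so its ranges overlapped.

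Isg15, the ubiquitin-like modifier that is joined to other proteins after interferon, had a lower level in each of these 3 graft libraries than in the 3 blood libraries. It stood at 960, 700 and 1097 CPM in blood and 448, 473 and 467 CPM in graft, with log2 ratios of -1.10 [-1.30 to -0.90], -0.56 [-0.76 to -0.38] and -0.58 [-0.69 to -0.48]. Herc6, the mouse ligase for Isg15, had 39.4 to 48.8 CPM in blood and 26.7 to 32.9 CPM in graft. Trim30a, a ubiquitin ligase, had 92.9 to 188 against 30.8 to 72.7 CPM.

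The sensors were divided. Of the 7, 3 were lower in heart-labelled TIL, 2 in liver-labelled TIL and 0 in liver PC, and 1 was higher in each, Ifi205 (36.2%, 17.4% and 23.3% of all genes). Ifi205, a member of the family of DNA-binding PYHIN proteins, stood at 18.4, 77.3 and 8.13 CPM in blood and 164, 197 and 188 CPM in graft, a log2 ratio of 3.09 [2.68 to 3.65], 1.34 [1.01 to 1.69] and 1.27 [1.05 to 1.52]. Its neighbour Ifi204 ran from 373 to 398 CPM in blood to 129 to 263 CPM in graft. Near-identical copies occur in this family, so the count of either is uncertain. Zbp1, a sensor of Z-form nucleic acids, had 812, 722 and 496 CPM in blood and 438, 544 and 493 CPM in graft. Dhx58 (LGP2) had 24.4 to 37.8 CPM in blood and 55.5 to 62.2 CPM in graft, and Ifih1 (MDA5) 24.4 to 36.5 and 17.8 to 37.6 CPM. Ddx58 and Ddx60 had 42.2 to 97.5 and 20 to 34.9 CPM in blood and 14.2 to 31.7 and 3.56 to 12.8 CPM in graft.

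Of the other induced genes, 3 of 8 were at least 2-fold higher in Csf3r-positive cells of heart-labelled TIL (all genes 36.2%), 5 of 9 in liver-labelled TIL (17.4%) and 4 of 9 in liver PC (23.3%). Lgals3bp, a secreted glycoprotein that binds galectins, stood at 69.0, 66.8 and 97.5 CPM in blood and 210, 204 and 246 CPM in graft. Bst2 (tetherin, which holds budding virus at the cell surface) stood at 128, 142 and 154 against 240, 297 and 264 CPM, and Phf11b at 76.1, 94.5 and 81.3 against 259, 213 and 237 CPM. The ranges of these 3 did not overlap, as for 24.3% of all genes in this direction. Ifi44 had 10.3 to 19.7 CPM in graft. Phf11d, a relative of Phf11b, had 2.36 and 10.2 CPM in heart and liver PBMC and 44.4 to 60.7 CPM in graft, but kidney PBMC lay within the graft range at 56.9 CPM, from 7 UMIs. The rest of this group was lower or mixed. Ifi27l2a stood at 1549, 1253 and 1515 CPM in graft, a log2 ratio to blood of -1.11, -1.05 and -0.78, and Rtp4 at 333, 489 and 338 CPM. Xaf1, a promoter of apoptosis, had 89.4 to 151 CPM in blood and 33.8 to 85.1 CPM in graft, and Parp14, an ADP-ribosyltransferase, 56.7 to 179 and 24.7 to 116 CPM.

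The GTPases Mx1 and Mx2 block viral replication and are disabled by mutation in common inbred mouse strains, and their counts were low. In Csf3r-positive cells Mx1 had at most 13.4 CPM in heart and liver PBMC and 14.2 to 27.0 CPM in graft, and Mx2 at most 5.33 CPM in any of these. Kidney PBMC gave 0 UMIs of both, which allows up to 24.4 CPM, so its place beside graft is not settled. Ifi47, of another GTPase family, stood at 1066, 1137 and 983 CPM in blood and 405, 661 and 490 CPM in graft.

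T cells could be compared in all 5 graft libraries. Ifit3 stood at 639, 213 and 141 CPM in T cells of heart, liver and kidney PBMC, at 62.0, 72.0 and 15.5 CPM in the 3 TIL libraries in the same order, and at 53.7 and 32.0 CPM in liver and kidney PC. Slfn4 stood at 738, 470 and 96.0 CPM in blood, at 51.8, 90.5 and 2.22 CPM in TIL and at 76.3 CPM in liver PC, and kidney PC gave 0 UMIs, which allows up to 12.0 CPM. Ifit3b gave 0 UMIs in T cells of kidney TIL, which allows up to 3.33 CPM, against 50.9 CPM in kidney PBMC. Each of the 3 was lower in the 5 graft libraries than in any blood library, for Slfn4 narrowly, at 90.5 against 96.0 CPM, and 10 of 41 members were so (all genes 3.37%). Above all blood libraries were 4 of 41 (8.29%), Mx2, Ifi44, Phf11d and Lgals3bp. Both Mx2 and Ifi44 gave 0 UMIs in liver and kidney PBMC, which allows up to 8.66 and 5.88 CPM there. Their lowest graft levels were 1.11 and 4.44 CPM, so for these 2 members the order is not settled. Oasl1 differed between the kidney libraries, at 17.6 CPM in PBMC, 7.76 CPM in TIL and 51.9 CPM in PC, from 9, 7 and 13 UMIs.

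In T cells kidney TIL had the lowest sum of the graft libraries. Its 2460 CPM was exceeded 1.86 times in heart-labelled TIL and 1.88 times in liver-labelled TIL. At least 2-fold higher than in kidney TIL were 21 of 41 members in heart-labelled TIL (20.4%) and 24 of 40 in liver-labelled TIL (20.5%), among them Slfn4, Ifit3b, Rtp4, Oasl2, Ifit3, Isg15 and Ifi204. In the Csf1r gate the sums were 1.03 and 1.12 times that of kidney TIL, and over 6 other choices of cells these ratios turned in direction (0.62 to 1.56 and 0.67 to 1.68). Heart-labelled TIL over liver-labelled TIL gave sums of 0.99 times in T cells, 0.92 times in the Csf1r gate and 0.89 times in the Csf3r gate. Of 41 members 1 was lower in heart-labelled TIL in T cells (4.43%), Isg20, and 2 of 41 in the Csf1r gate (6.52%), Ifit3b and Ddx60.

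Since neutrophil RNA differed so much between blood and graft, the sums were taken again among cells grouped by the share of their UMIs from S100a8 and S100a9. This grouping was chosen after the levels above had been seen. The median share was 17.6%, 12.4% and 9.69% in Csf3r-positive cells of heart, liver and kidney PBMC and 0.62%, 0.60% and 0.99% in those of heart-labelled TIL, liver-labelled TIL and liver PC. Few cells therefore lay in the same band on both sides. The lowest and highest bands are open-ended, so the share can still differ between libraries inside them. In T cells its median over whole gates was 0% in kidney TIL, 0.42% and 0.40% in heart-labelled and liver-labelled TIL, and 1.56% in kidney PBMC.

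The member sum was higher in the bands with more neutrophil RNA in blood and graft alike. In Csf3r-positive cells of liver PBMC it was 8032 CPM under 2% (93 cells), 8333 CPM from 2% to under 5% (354 cells) and 13840 CPM at 5% or more (3098 cells). In those of liver PC it was 5913 CPM (761 cells), 8864 CPM (143 cells) and 10745 CPM (242 cells). T cells of liver PC ran from 4289 to 8067 to 9014 CPM, and T cells of heart PBMC from 3818 CPM in 8 cells to 6302 and 12964 CPM.

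Within a band the ratio of graft to blood was nearer to 1. For Csf3r-positive cells at 5% or more it was 0.69 [0.63 to 0.77] for heart-labelled TIL, from 42 graft cells, 0.85 [0.77 to 0.94] for liver-labelled TIL, from 46, and 0.78 [0.75 to 0.80] for liver PC. From 2% to under 5% it was 1.15, 1.15 and 1.06, that is, slightly above 1. Under 2% it was 0.76 and 0.74 for liver-labelled TIL and liver PC, and heart PBMC had 4 such cells. In the Csf1r gate under 2% the ratios were 0.67 for liver-labelled TIL and 0.66 for liver PC. From 2% to under 5% they were 1.02 [0.90 to 1.14], from 36 graft cells, and 0.89. At 5% or more they were 0.86 [0.72 to 1.01], from 16 graft cells, and 0.76. Heart-labelled TIL gave 0.98 from 2% to under 5% and 0.69 at 5% or more, from 53 and 21 graft cells.

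In T cells under 2% the sum was not lower in liver-labelled TIL or liver PC than in liver PBMC. The ratio was 1.55 [1.33 to 1.82] for liver-labelled TIL and 1.47 for liver PC, both against the same 39 blood cells, and 1.23, 1.30 and 1.37 from 2% to under 5% for heart-labelled TIL, liver-labelled TIL and liver PC. In kidney, with 263 blood T cells under 2%, it was 0.60 for TIL (2457 against 4084 CPM) and 1.0 for PC. At 5% or more it was 0.65 for heart-labelled TIL, 0.91 [0.81 to 1.03] for liver-labelled TIL, from 39 graft cells, and 0.82 for liver PC. How much of each ratio over whole gates rests on neutrophil RNA was not tested beyond these bands.

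**Figure D4:**
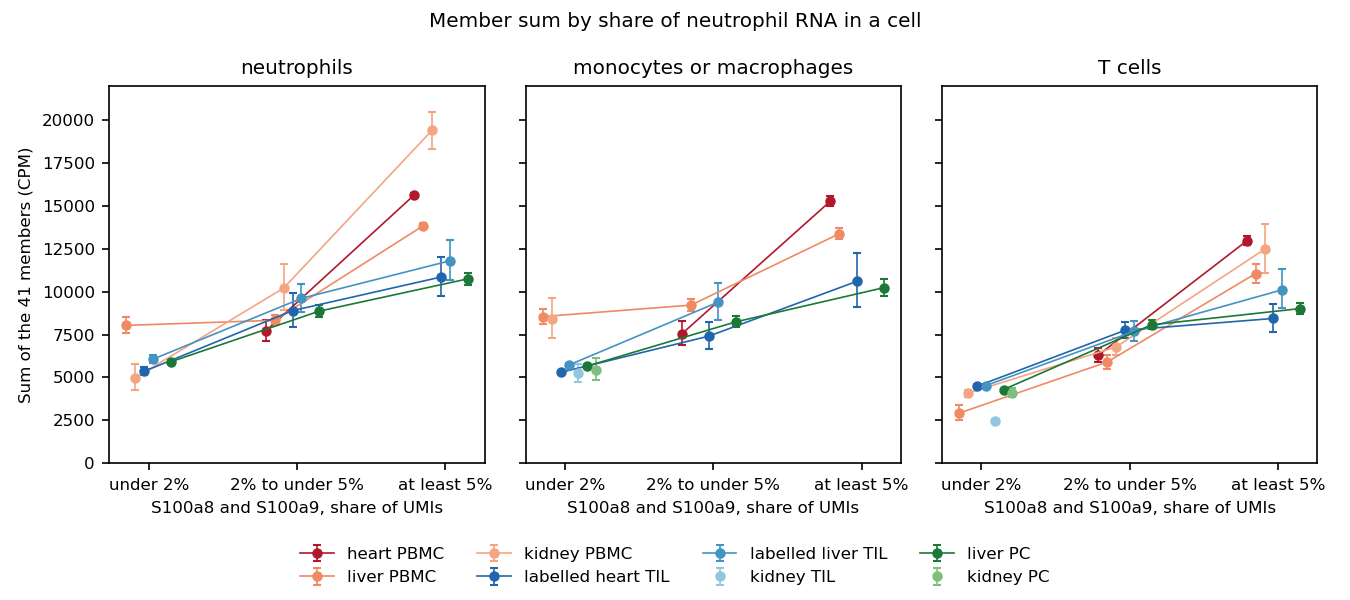
Summed level of the 41 members in CPM by band of the S100a8 and S100a9 share of a cell's UMIs (under 2%, 2% to under 5%, 5% or more), for gates and libraries with at least 20 cells in a band, with exact 95% Poisson intervals. Each line is higher at its right end than at its left, and at 5% or more the points of blood lie above those of graft in each gate.

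Gene by gene, the counts differed between bands. In Csf3r-positive cells under 2%, 8 of 36 members were at least 2-fold lower in liver-labelled TIL (14.3%) and 9 of 40 in liver PC (10.4%). From 2% to under 5%, 7 of 36 were higher and 3 lower in liver-labelled TIL (10.8% and 27.4%), and 3 of 38 higher and 1 lower in liver PC (11.1% and 11.3%). For liver PC over liver PBMC in Csf3r-positive cells at 5% or more, 3 of 39 members were at least 2-fold lower (14.5%), Slfn5 (log2 -1.71), Ifit3b (-1.35) and Oasl2 (-1.31), and 3 were higher (13.1%), Phf11d (1.65), Ifit2 (1.34) and Lgals3bp (1.28). In the Csf1r gate under 2%, 6 of 40 were lower in liver-labelled TIL (14.4%) and 8 of 41 in liver PC (11.4%). Slfn5 and Oasl2 were among them in both, Slfn5 at log2 -2.25 and -2.50. From 2% to under 5%, the Csf1r gate of liver PC had 3 of 38 lower (9.37%) and 1 higher (12.7%). At 5% or more it had 6 of 37 lower (12.7%) and 3 higher (13.8%). Of the counts of lower members, those of Csf3r-positive cells under 2% and of Csf1r-positive cells of liver PC under 2% were above the share of all genes. The other Csf1r counts of lower members lay near it. In the other direction, the 7 of 36 higher in liver-labelled TIL from 2% to under 5% were also above it (10.8%). Both counts of Csf3r-positive cells at 5% or more were below it.

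In T cells from 2% to under 5%, 7 of 29 members were higher and 3 lower in heart-labelled TIL (13.5% and 16.1%), 7 of 27 higher and 1 lower in liver-labelled TIL (13.1% and 19.3%), and 11 of 38 higher and 0 lower in liver PC (17.0% and 8.98%). At 5% or more, 9 of 36 were lower in heart-labelled TIL (26.2%) and 3 of 37 in liver PC (9.03%). In T cells under 2%, 15 of 35 members were lower in kidney TIL than in kidney PBMC (12.7%), among them Ifit3 (log2 -2.54), Isg15 (-1.21) and Ifi27l2a (-1.01). In kidney PC it was 6 of 31 (17.9%). The higher levels of heart-labelled and liver-labelled TIL over kidney TIL were also counted there, with 19 of 41 (20.4%) and 25 of 40 (20.4%) members at least 2-fold higher. Of the 6 libraries with at least 50 T cells under 2%, kidney TIL had the lowest sum, 2457 CPM, and the others lay between 4084 and 4520 CPM.

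Between single cells, the members' sum was read after each cell was thinned to 500 UMIs. Csf3r-positive cells of heart PBMC then held a mean of 7.84 member UMIs (median 7, highest 40), those of liver PBMC 6.67 (median 6, highest 26) and those of kidney PBMC 7.69 (median 6, highest 33). The variance was 1.79, 1.95 and 4.97 times the mean, where counting error alone in equal cells would give 1. When the members were divided into groups of 21 and 20, the sums of both correlated over cells at r = 0.25 in heart (4324 cells), 0.31 in liver (3545 cells) and 0.61 in kidney (156 cells). The member sum correlated with the neutrophil genes at -0.002, 0.26 and 0.39 over the same cells, and these correlations share the depth and free RNA of each library.

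In heart PBMC, cells high and low for the members had like levels of neutrophil genes but not of T and B cell genes. Its 460 cells with at least 13 member UMIs and its 746 cells with at most 4 had neutrophil genes at 221239 and 217029 CPM, T cell genes at 865 and 1796 CPM and B cell genes at 522 and 1164 CPM, and 13.9% and 27.7% of them passed another gate. The part of these in the members' spread was not tested. In liver PBMC the 477 cells with at least 11 and the 651 with at most 3 differed in these genes, 178201 against 114823 CPM. In kidney PBMC the bands held 16 and 17 cells that differed in kind, with erythroid genes at 5750 and 46471 CPM.

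To see which members varied together, each was compared between cells high and low for the sum of the other 40. Ifit2 led with a ratio of 4.81 in heart and 5.05 in liver PBMC, followed in heart by Ifit1 (3.47 and 4.42 in liver), Rsad2 (3.34 and 4.29), Herc6 (2.93 and 1.92), Ifit3b (2.86 and 4.13) and Isg15 (2.69 and 3.57). Irf7 stood at 1.94 and 2.72 and Usp18 at 1.59 and 3.82. Lower ratios were those of Ifi27l2a at 1.27 and 1.37, Slfn1 at 1.26 and 1.64 and Zbp1 at 1.29 and 1.56. Bst2 differed between the libraries, 2.07 in heart and 0.65 in liver, and Phf11b was at 0.73 and 0.98. Mx1, Mx2, Ifi44 and Phf11d had too few UMIs to be ranked in either library.

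Outside the list, interferon genes were among those that went with the member sum in heart PBMC. The 10 leading genes of 2018 ranked were Ifit1bl1 (ratio 4.12), Parp10 (3.27), Bet1l, B9d2, Padi4, Cxcl10 (2.80), Azi2, Treml4, Oas1a (2.57) and Trim12c (2.56), from 9 to 93 UMIs in a band. In liver PBMC the first 10 were Gbp5 (7.93 [3.22 to 27.6]), 2810474O19Rik, Cd14 (4.49 [2.22 to 10.5]), Sec14l1, Rnd1, Gpr146, Slc40a1, Fabp5, Chil1 and Parp10 (3.40), from 5 to 101 UMIs in a band. At least 2-fold higher were 1.98% of genes in heart and 5.41% of 2181 in liver, and 10 genes were so in both, 25% of the heart list and 8.47% of the liver list. Of the list of other interferon-induced genes, 4 of 35 ranked were at least 2-fold higher and 2 lower in heart, and 5 of 37 and 2 in liver, beside 7.04% and 12.8% of all genes lower. Of the interferon gamma genes, 5 of 18 were higher in heart and 6 of 18 in liver, and 0 lower in both.

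The ligands themselves were hardly seen. Of 19 type I interferon genes, 2 had a row in any table, Ifnb1 and Ifnk, with 3 UMIs in all cells of the 8 libraries, 1 of Ifnb1 in kidney TIL and 2 of Ifnk in heart-labelled TIL. At this depth their sources cannot be read. The receptor genes were low in all cells, Ifnar1 at 8.09 to 33.6 CPM and Ifnar2 at 34.4 to 75.0 CPM over the 8 libraries.

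Interferon gamma and Cxcl9 had higher levels in TIL than in blood. Ifng stood at 19.7, 11.5 and 74.5 CPM in T cells of heart, liver and kidney PBMC and at 183, 274 and 293 CPM in those of the TIL libraries. Cxcl9, a chemokine induced by interferon gamma, stood at 7.38 and 33.1 CPM in the Csf1r gate of heart and liver PBMC and at 562, 1010 and 1780 CPM in TIL. Of the interferon gamma genes that could be counted in Csf3r-positive cells, 6 of 28 were at least 2-fold higher and 6 lower in heart-labelled TIL (all genes 36.2% and 13.8%), 11 and 2 of 29 in liver-labelled TIL (17.4% and 16.3%), and 10 and 8 of 30 in liver PC (23.3% and 8.71%). Their medians were log2 -0.06, 0.42 and -0.02, beside -1.40, -0.89 and -0.58 for the members.

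A further list held other interferon-induced genes, none of them a member. In Csf3r-positive cells, beside the same shares of all genes, 7 were higher and 19 lower of 53 in heart-labelled TIL, 3 and 16 of 53 in liver-labelled TIL, and 3 and 13 of 54 in liver PC. Further lists shared genes with the members, which were left out of the counts that follow. Of 5 genes that restrain interferon signalling, 2, 1 and 3 were lower and 0 higher. Of 10 receptors and kinases 1, 2 and 3 were lower and 0, 0 and 1 higher. Of the genes of nucleic acid sensing 1 of 11, 1 of 12 and 1 of 13 were lower and 3, 0 and 3 higher.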

How the data were processed

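Single cells were read by Microwell-seq in 8 libraries, 1 per condition. The authors processed reads with the Drop-seq core tools and STAR, aligned them to GRCm38 with a GENCODE annotation, removed multi-aligned reads and those with poor barcode bases, and merged UMIs of a gene that were 1 edit apart. The deposited tables hold raw UMI counts for 10000 barcodes each, with no normalization, and library totals ran from 3418722 to 19171264 UMIs. The submitters' processing notes also name bcl2fastq. How strand was treated is not given in the sources used here.

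Barcodes with at least 500 UMIs were kept and a limit of 10% on mitochondrial UMIs served as an alternative only. Doublets were not removed, and cells passing several gates stayed in each. Ratios used a pseudocount of 1 CPM. Groups came from the labels. In addition to the members, up to 8 genes with the largest ratios of a comparison were named, with the 3 highest members, the 4 highest genes of a further list and the 10 leading genes that went with the member sum. The members and lists were chosen with earlier results of these data known. Alternatives varied the UMI floor, gates, pseudocount, minimum, centring, thinning and shared barcodes. The S100a8 and S100a9 bands were added after the data were seen. The counting and spread steps were tested on simulated data. B cells of graft libraries with fewer than 50 cells were left out, and the bulk RNA sequencing was not used here. Scripts ran in Python 3.11.15, with pandas 2.3.3, numpy 2.4.6 and scipy 1.17.1, and figures were drawn with matplotlib 3.10.9.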

Additional observations from a re-analysis of the deposited data

Results flagged for a closer look

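Barcodes with fewer than 500 UMIs entered no comparison, and they held the members as well. Their summed level was 15806 CPM in heart PBMC, 14079 CPM in liver PBMC and 14516 CPM in kidney PBMC. It was 5493 CPM in heart-labelled TIL, 5744 CPM in liver-labelled TIL, 4770 CPM in kidney TIL and 4969 CPM in kidney PC. All kept cells, whatever their gate, stood at 14574, 11625 and 7224 CPM in heart, liver and kidney PBMC. In the graft libraries just named they stood at 4910, 5269, 3064 and 4195 CPM, in the same order. Csf3r-positive cells kept in the 3 PBMC libraries stood at 15434, 12738 and 13546 CPM, and T cells kept in kidney PBMC at 5044 CPM.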

How the results depend on the processing

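With 1 library per condition, no replicate could be left out, and no value says what another animal would give. No paired analysis was possible because each group held 1 library. Members with few UMIs, such as Mx1, Mx2 and Ifi44, are limited by depth. Under the 6 alternatives that change which cells or UMIs are summed, each ratio of graft to blood lay below 1, from 0.36 to 0.84, but some were above 1 within bands of neutrophil RNA. Ratios on both sides of 1 were heart over kidney PBMC (0.76 to 2.55) and liver over kidney PBMC (0.68 to 1.85) in the Csf3r gate, heart-labelled over liver-labelled TIL in that gate (0.86 to 1.05) and in T cells (0.98 to 1.03), heart-labelled (0.62 to 1.56) and liver-labelled TIL (0.67 to 1.68) over kidney TIL in the Csf1r gate, and liver over kidney PC in T cells (0.99 to 1.44). Over all alternatives 324 recomputed counts and spreads stayed near their value (a count within 1.5 times, a variance over the mean within its 95% sampling interval) and 67 moved, and of the recomputed sums 71 stayed within their counting interval and 73 did not. The cause of the moves that follow was not tested. These counts stand without the share of all genes under the same setting, which can move too. They are therefore not read as results about the members. With a gate of 2 Csf3r UMIs, as given above, the lower members of the TIL libraries were no longer above that share. With a floor of 1000 UMIs per cell, members at least 2-fold apart in Csf3r-positive cells of heart over liver PBMC went from 0 to 7 higher and 5 to 3 lower, of heart over kidney PBMC from 4 to 23 and 5 to 3, and of liver over kidney PBMC from 2 to 22 and 4 to 1. Under the same floor heart over liver PBMC in the Csf1r gate went from 3 to 8 higher, heart-labelled over liver-labelled TIL from 2 to 7 lower in that gate and from 1 to 3 in T cells, liver-labelled TIL over PBMC from 6 to 3 higher in the Csf3r gate, kidney PC T cells from 7 to 12 lower, and the Csf3r gate over T cells of kidney PBMC from 25 to 7. With cells of 1 gate only, heart over kidney PBMC went from 4 to 1 higher in the Csf3r gate, heart over liver PBMC in the Csf1r gate from 3 to 8 higher and 3 to 5 lower, liver PC from 16 to 7 lower in the Csf3r gate and 20 to 12 in B cells, liver-labelled TIL from 12 to 6 lower in T cells, and the Csf3r gate over T cells from 2 to 11 in heart and 13 to 25 in liver. With cells thinned to 500 UMIs, heart-labelled over liver-labelled TIL went from 1 to 2 lower in T cells and kidney PC from 7 to 11. With the S100a8 and S100a9 share at 5% or more, liver PC went from 5 to 3 higher and 16 to 3 lower, heart over kidney PBMC from 4 to 1 higher and liver over kidney PBMC from 4 to 7 lower. With that share under 2%, the Csf1r gate went from 17 to 6 lower in liver-labelled TIL and 18 to 8 in liver PC. With a gate of 2 UMIs, heart over kidney PBMC went from 5 to 9 lower, liver over kidney PBMC from 2 to 4 higher and 4 to 10 lower, heart over liver PBMC in the Csf1r gate from 3 to 6 higher, heart-labelled TIL from 27 to 13 lower in the Csf3r gate and from 7 to 3 higher and 28 to 17 lower in the Csf1r gate, liver-labelled TIL from 6 to 3 higher and 19 to 12 lower, the Csf3r gate over T cells of heart PBMC from 2 to 1, and the variance over the mean from 1.95 to 2.08 in liver and 4.97 to 3.68 in kidney PBMC. With a minimum of 30 UMIs, heart over liver PBMC in the Csf1r gate went from 3 to 1 lower, heart-labelled over liver-labelled TIL there from 2 to 1, kidney TIL T cells from 22 to 13, kidney PC T cells from 7 to 3, and the Csf3r gate over T cells of kidney PBMC from 25 to 16. With no minimum, liver over kidney PBMC went from 2 to 4 higher and heart over liver PBMC in the Csf1r gate from 3 to 5 lower. With a pseudocount of 10 CPM, heart over liver PBMC went from 5 to 2 lower in the Csf3r gate, 3 to 1 lower in the Csf1r gate and 8 to 5 higher in T cells, heart over kidney PBMC from 4 to 2 higher, heart-labelled over liver-labelled TIL from 2 to 0 lower in the Csf1r gate, heart-labelled over kidney TIL from 21 to 12 higher and kidney TIL from 22 to 12 lower in T cells, and the Csf3r gate over T cells of heart PBMC from 2 to 0. With ratios centred on the median gene, heart over liver PBMC went from 0 to 8 higher and 5 to 3 lower in the Csf3r gate, 3 to 12 higher in the Csf1r gate and 8 to 13 in T cells, heart-labelled over liver-labelled TIL from 2 to 4 lower in the Csf1r gate, liver PC from 5 to 3 higher, and the Csf3r gate over T cells from 2 to 4 in heart and 13 to 20 in liver PBMC. Thinning to 1000 UMIs, which keeps only cells with at least that many, moved the variance over the mean from 1.79 to 2.79 in heart and 1.95 to 3.36 in liver PBMC. This measure grows with the mean count wherever cells differ, so values at different depths are not like for like. Without shared barcodes the Csf3r gate over T cells of liver PBMC went from 13 to 20 and the variance over the mean in liver PBMC from 1.95 to 2.13.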
